A study of Mus musculus with 16 samples.

Results

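The expression of 9 genes that carry or restrain the signal from phosphoinositide 3-kinase (PI3K) to the kinase AKT was followed in cultured mouse CD8+ T cells exposed to prostaglandin E2 (PGE2). They were *Phlpp1*, *Phlpp2*, *Inpp5d*, *Inpp4b*, *Pik3ip1*, *Pik3r1*, *Pik3cd*, *Tsc1* and *Akt1*, chosen by gene name as 9 of the 54532 genes in the count table. Of these, *Pik3cd* and *Akt1* encode kinases that carry the signal forward, so the set holds the signal's carriers as well as its brakes. All cultures began with naive CD8+ T cells from spleens of C57BL/6J mice, which were activated repeatedly for 4 days so that they kept the stem-like factor TCF1. Cells were left untreated or were given PGE2 at 100 ng/ml for 1 h at the start, and both then spent 4 h in IL-2 at 85 U/ml. In that time the unstimulated groups had IL-2 alone, whereas the stimulated groups also had beads carrying anti-CD3 and anti-CD28 antibodies, at 1 bead per cell. Each of the 4 groups (unstimulated untreated, unstimulated PGE2, stimulated untreated and stimulated PGE2) had 4 replicates in poly(A) RNA-seq. As all groups received IL-2, none shows the genes without a cytokine, and the cells are a culture model made from naive cells.

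Class IA PI3K pairs a catalytic subunit, such as the p110δ that *Pik3cd* encodes, with a regulatory subunit, such as the p85α of *Pik3r1*, and makes the membrane lipid PIP3 when T cell receptors, CD28 or cytokine receptors are engaged. PIP3 recruits AKT, which then holds FOXO transcription factors out of the nucleus and, by inhibiting the TSC1 and TSC2 complex, permits mTORC1 to act. Brakes sit at each step, as PIK3IP1 inhibits PI3K at the membrane, the lipid phosphatases SHIP-1 (*Inpp5d*) and INPP4B remove phosphates from its products, and PHLPP1 and PHLPP2 take an activating phosphate off AKT itself.

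The libraries held between 22678254 and 42950763 counts on genes, with a median of 30211840.5, and every member had at least 432 counts in each of the 16 samples. The genes taken as CD8 T cell markers (*Cd3e*, *Cd8a*, *Cd8b1*, *Tcf7* and *Slamf6*) were all expressed. They summed to 2844 to 3723 counts scaled to a library of 1000000 (CPM) in unstimulated untreated and 2464 to 3366 CPM in unstimulated PGE2 samples. The sum was 2211 to 2317 CPM in stimulated untreated and 1936 to 2063 CPM in stimulated PGE2 samples. The 6 B cell markers summed to at most 21.1 CPM, the 6 myeloid markers to at most 6.57 CPM, the 5 erythroid markers to at most 0.821 CPM and the 4 CD4 T cell markers to at most 40.6 CPM in any sample. Of these 4, *Zbtb7b* was the highest (up to 34.4 CPM), *Cd4* reached at most 1.87 CPM and *Foxp3* was at 3.09 to 9.07 CPM. Which cells held these transcripts was not tested. Markers of NK cells moved with stimulation, as their 4 genes summed to 14.1 to 24.9 CPM in unstimulated untreated and 115 to 180.4 CPM in stimulated untreated samples, and to 8.08 to 17.4 and 44.1 to 131 CPM in the PGE2 groups. *Eomes*, which activated CD8+ T cells also express, carried most of that sum (141 ± 31.5 CPM, SD, in stimulated untreated cells), whereas *Ncr1*, which marks NK cells, had no count in any sample. RNA was taken from the whole culture, so that fewer cells with a transcript and less of it per cell cannot be told apart.

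The 9 genes were first compared by their level per length, in the deposited fragments scaled to gene length and library size (FPKM). In unstimulated untreated cells *Pik3cd* stood highest at 149.6 ± 10.2 FPKM (mean ± SD, n = 4, as for all such values). It was followed by *Akt1* at 43.98 ± 1.86, *Inpp4b* at 42.3 ± 6.22 and *Pik3ip1* at 38.2 ± 10.3 FPKM, whose samples overlapped in this order. *Inpp5d* (18.2 ± 0.945), *Pik3r1* (12.8 ± 0.841), *Phlpp1* (5.22 ± 0.214), *Tsc1* (3.41 ± 0.185) and *Phlpp2* (2.08 ± 0.0749 FPKM) came next, each without overlap with its neighbour. The order changed between groups through *Pik3ip1* and through an exchange of *Tsc1* and *Phlpp2*, whereas *Phlpp1* kept the seventh place in all 4 groups. With stimulation *Pik3ip1* dropped to the fifth place at 4.94 ± 0.405 FPKM, where its samples overlapped those of *Pik3r1* (4.66 ± 0.725 FPKM). With PGE2 in unstimulated cells *Phlpp1* reached 13.9 ± 2.84 FPKM and overlapped *Pik3r1* (16.96 ± 1.02 FPKM), which it did not without PGE2. *Pik3cd* was the highest of the 9 in all 4 groups, and *Phlpp2* the lowest in all but the stimulated untreated group, where *Tsc1* (2.37 ± 0.0631 FPKM) and *Phlpp2* (2.42 ± 0.114 FPKM) overlapped. The plot of levels per length shows these ranges for the 4 groups.

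**Figure D1:**
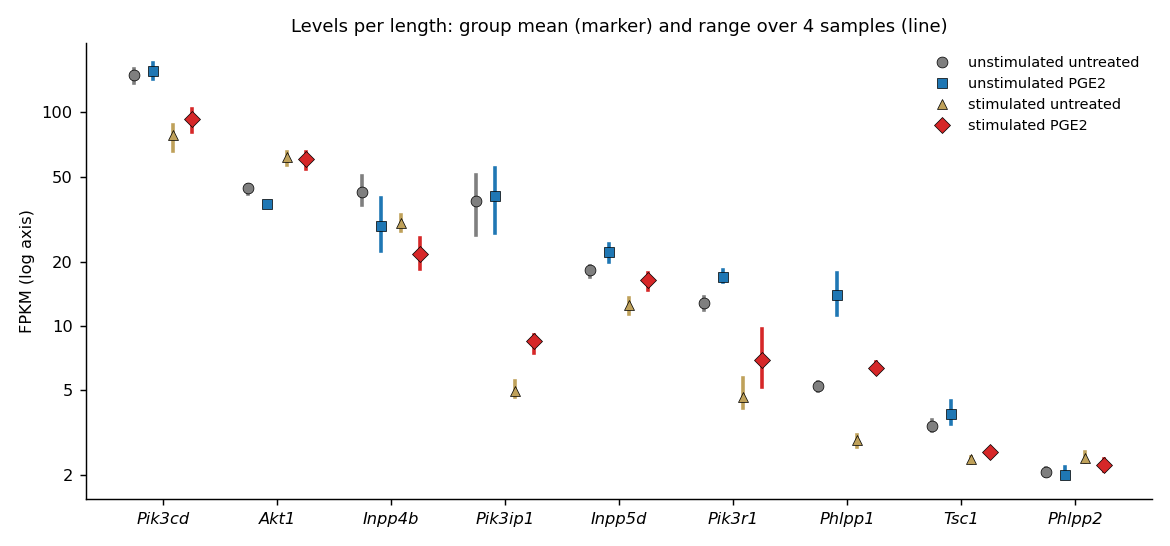
Level of each of the 9 genes in FPKM on a log axis, with 1 marker for the mean of each group and a line from its lowest to its highest sample (4 samples). *Pik3cd* lies highest in every group, and the *Pik3ip1* markers of the stimulated groups (4.94 and 8.49 FPKM) lie far below those of the unstimulated groups (38.2 and 40.6 FPKM).

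The first question was whether PGE2 changed these genes in cells kept in IL-2 alone. With PGE2, *Phlpp1*, *Inpp5d* and *Pik3r1* rose and *Inpp4b* and *Akt1* fell (5 of 9, adjusted p below 0.05 in edgeR's quasi-likelihood test over all genes, called past the test). Among all 14505 genes tested, 12.9% rose and 15.5% fell by the same rule, so that 3 members higher and 2 lower of 9 is to be read against these shares. *Phlpp1* alone of the 9 was a differentially expressed gene (DEG, past the test with at least a 2-fold change), a call that 1.45% of genes met in the higher direction. The groups did not overlap in 4 members, against 28.9% of all genes. The median log2 fold change of the members was 0.085, against -0.001 over all genes.

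The same question in stimulated cells gave 4 of 9 members past the test, with *Phlpp1*, *Inpp5d* and *Pik3ip1* higher and *Inpp4b* lower. Over the 13922 genes tested, 6.04% were higher and 3.80% lower. *Phlpp1* was again the member that was a DEG (1.20% of genes were DEGs in the higher direction). There was no overlap between the groups in 5 members, against 17.9% of all genes, and the median log2 fold change was 0.26 for the members and -0.0061 for all genes. The summed CD8 T cell markers did not overlap between these groups either (2211 to 2317 CPM without and 1936 to 2063 CPM with PGE2). The markers did not move as one, since *Cd8a* (1112 to 1209 CPM without and 784 to 931 CPM with PGE2) and *Cd8b1* (515 to 581 and 446 to 472 CPM) were lower, *Tcf7* was higher (289 to 328 and 342 to 469 CPM), and *Cd3e* and *Slamf6* overlapped. In unstimulated cells too, *Cd8a* (938 to 1033 CPM without and 667 to 753 CPM with PGE2) and *Cd8b1* (608 to 809 and 469.9 to 604 CPM) were lower without overlap. The part of these markers in the results was not tested. *Phlpp1*, *Inpp5d* and *Inpp4b* thus passed the test in the same direction in both settings, whereas *Phlpp2*, *Pik3cd* and *Tsc1* passed in neither. A further fit used the replicate number as a block, which takes out what samples of the same number share. With this replicate block *Pik3cd* passed in stimulated cells (edgeR adjusted p = 0.00082) and *Tsc1* in unstimulated cells (edgeR adjusted p = 0.00557), whereas *Phlpp2* still passed in neither.

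**Figure D2:**
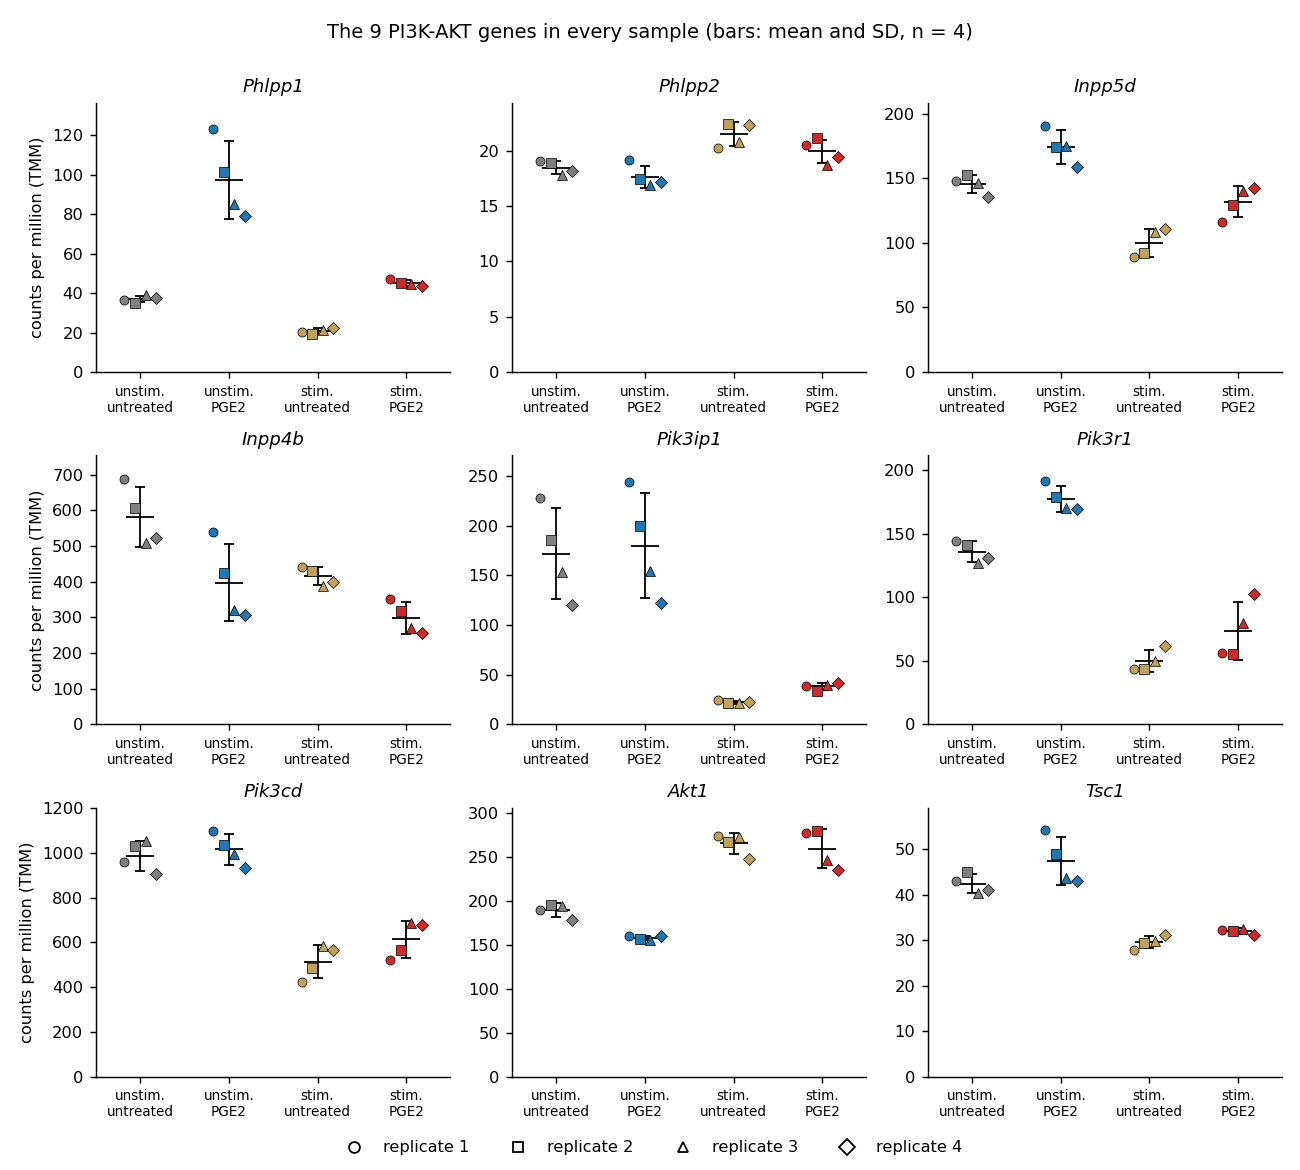
CPM of each member in all 16 samples, with 1 panel for each gene, a symbol for each replicate number, and a bar for the mean and SD of each group (n = 4). The PGE2 samples of *Phlpp1* lie above the untreated samples with and without stimulation, and the stimulated samples of *Pik3ip1* (21.2 to 41.1 CPM) lie below all unstimulated ones (120.2 to 243 CPM).

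Of the paired phosphatases of AKT, *Phlpp1* rose with PGE2 in both settings and *Phlpp2* passed the test in neither. In unstimulated cells *Phlpp1* was at 36.6, 35.03, 38.9 and 37.8 CPM in untreated replicates 1 to 4 and at 123, 102, 85.3 and 79.1 CPM in PGE2 replicates 1 to 4, the order used for all values by sample. Every PGE2 sample was more than 2 times any untreated one, and the PGE2 samples were spread more widely, with replicate 1 highest. This was a 2.65-fold rise (1.41 ± 0.11 on the log2 scale, edgeR adjusted p = 9.22e-06; values after ± on the log2 scale are the SE of the fit). In stimulated cells *Phlpp1* was at 20.5, 19.1, 21.4 and 22.3 CPM without and 47.4, 44.99, 44.7 and 43.6 CPM with PGE2. Here both groups were narrow and did not overlap, and the rise was 2.18-fold (1.12 ± 0.072 on the log2 scale, edgeR adjusted p = 4.44e-05). With limma on log2(FPKM + 1) it passed the test there but not the 2-fold limit. *Phlpp1* lies on chromosome 1 at 106171752 to 106394250 on the plus strand of GRCm38, as the deposited annotation gives it.

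*Phlpp2* (chromosome 8, 109868542 to 109944671, plus strand) was at 19.1, 18.9, 17.8 and 18.2 CPM in untreated and 19.2, 17.4, 16.9 and 17.2 CPM in PGE2-treated unstimulated cells. Stimulated cells had 20.3, 22.5, 20.8 and 22.4 CPM without and 20.5, 21.1, 18.8 and 19.4 CPM with PGE2. The samples with and without PGE2 overlapped in both settings, and neither difference passed the test (log2 fold change -0.045, 95% interval -0.19 to 0.10, edgeR adjusted p = 0.67 unstimulated; -0.10, -0.28 to 0.074, edgeR adjusted p = 0.423 stimulated). Both intervals end well below the lower bound for *Phlpp1*, 1.16 and 0.96 on the log2 scale in unstimulated and stimulated cells.

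The ratio of *Phlpp1* to *Phlpp2*, taken within each sample in FPKM, describes the same values. It was 2.40, 2.32, 2.73 and 2.60 in the unstimulated untreated samples and 8.05, 7.30, 6.31 and 5.75 in the unstimulated PGE2 samples. Stimulated untreated samples had ratios of 1.26, 1.07, 1.29 and 1.25, and stimulated PGE2 samples 2.89, 2.66, 2.98 and 2.81. The ratio thus was lowest, close to equal amounts, in stimulated untreated cells and highest in unstimulated PGE2 cells, and the stimulated PGE2 range (2.66 to 2.98) overlapped that of unstimulated untreated cells (2.32 to 2.73).

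**Figure D3:**
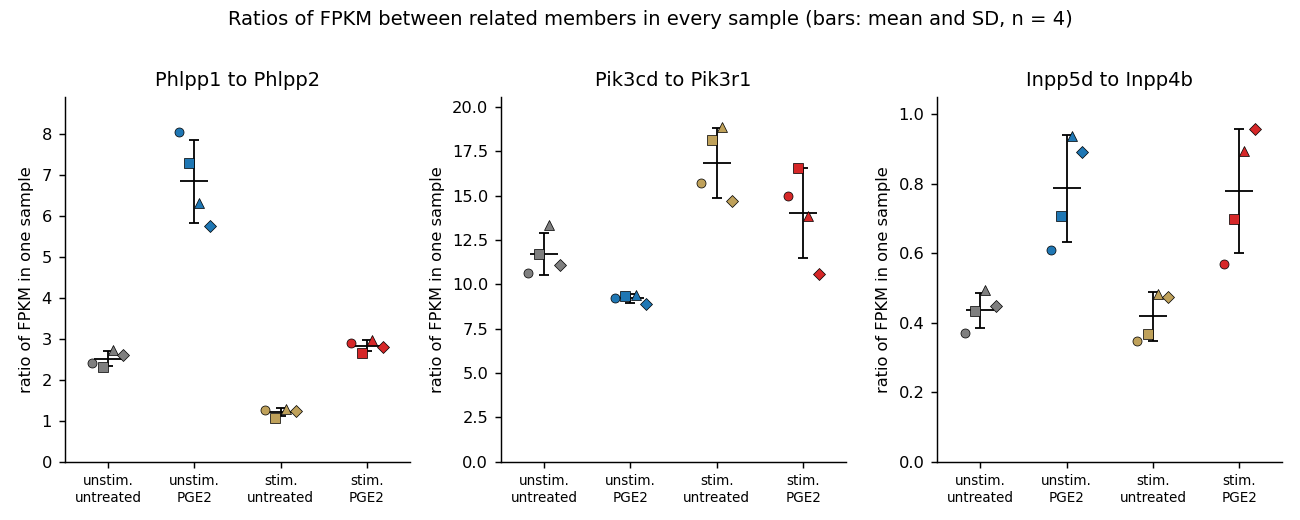
Ratio of the FPKM values of 2 related members in each sample, for *Phlpp1* to *Phlpp2*, *Pik3cd* to *Pik3r1* and *Inpp5d* to *Inpp4b*, by group with mean and SD (n = 4). The ratio of *Phlpp1* to *Phlpp2* reached 5.75 to 8.05 in unstimulated PGE2 cells and 1.07 to 1.29 in stimulated untreated cells.

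The bases just before the starts of both genes are given because PGE2 acts through receptors that raise cAMP, and the factors downstream of cAMP are known to bind the cAMP response element (CRE, TGACGTCA) or its half-site TGACG. They were read from the RefSeq promoter table (GRCm38.p6), are written 5′ to 3′ on the gene's strand in lower case with any match to the CRE, its half-site or the FOXO motif GTAAACA (both strands) in capitals, and end at the base before the gene's deposited start. The *Phlpp1* stretch is chr1:106171619-106171751 (plus strand) and the *Phlpp2* stretch chr8:109868353-109868541 (plus strand).
Phlpp1: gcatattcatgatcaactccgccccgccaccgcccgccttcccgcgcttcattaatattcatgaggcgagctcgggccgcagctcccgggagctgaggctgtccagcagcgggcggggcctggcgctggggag
Phlpp2: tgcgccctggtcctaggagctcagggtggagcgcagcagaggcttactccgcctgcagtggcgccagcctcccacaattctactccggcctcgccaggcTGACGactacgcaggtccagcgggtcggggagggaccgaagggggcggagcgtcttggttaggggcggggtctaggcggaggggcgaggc
The full windows of 250 bases before to 50 after the RefSeq start were searched for all 9 members, which had 13 windows. None of the windows held the full CRE, which 1.79% of all 32851 windows of this length held. *Phlpp1* held none of the 3 motifs, and its window was 70.7% G or C. The half-site, found in 20.8% of all windows, was in 4 of the 13 windows, 1 each of *Phlpp2*, *Inpp5d*, *Pik3r1* and *Tsc1*. The FOXO motif (3.65% of all windows) was in 1 window of *Akt1*. A full CRE also counts as a half-site. A match is a description of the letters, and a window without one says nothing of what binds there.

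The lipid phosphatases moved in opposite directions with PGE2. SHIP-1 takes a phosphate off PIP3 and INPP4B off the lipid that this step yields. *Inpp5d* (chromosome 1, 87620312 to 87720507, plus strand) was at 148, 153, 146 and 136 CPM in untreated and 191, 174, 175 and 159 CPM in PGE2-treated unstimulated cells. All PGE2 samples lay above all untreated ones, by a small step (1.22-fold; 0.28 ± 0.062 on the log2 scale, edgeR adjusted p = 0.00581). In stimulated cells *Inpp5d* was at 89.1, 92.1, 109 and 111 CPM without and 116, 129, 139.9 and 142 CPM with PGE2. The groups again did not overlap (1.32-fold; 0.40 ± 0.10 on the log2 scale, edgeR adjusted p = 0.03), yet this call was lost when stimulated untreated replicate 1 or 2 or stimulated PGE2 replicate 2, 3 or 4 was left out, with adjusted p up to 0.0997 in edgeR. With the replicate block and all samples the call was kept (log2 fold change 0.41, edgeR adjusted p = 4.07e-05).

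*Inpp4b* (chromosome 8, 81342556 to 82127914, plus strand) was at 688, 605, 509 and 523 CPM in untreated and 538, 423, 320.1 and 306 CPM in PGE2-treated unstimulated cells. The PGE2 samples tended to the low side, but the highest of them, replicate 1, lay within the untreated range (1.45-fold lower; -0.53 ± 0.16 on the log2 scale, edgeR adjusted p = 0.0245). Without untreated replicate 1 or 2 or PGE2 replicate 2, 3 or 4 the call was lost, with adjusted p up to 0.0788 in edgeR. With the replicate block and all samples it was kept (log2 fold change -0.56, edgeR adjusted p = 1.33e-07). In stimulated cells the gene was at 441, 429.7, 387 and 399.9 CPM without and 351, 318, 269 and 256 CPM with PGE2. These groups did not overlap (1.38-fold lower; -0.47 ± 0.10 on the log2 scale, edgeR adjusted p = 0.0204), and the call was lost without stimulated untreated replicate 1 or 2 or stimulated PGE2 replicate 3 (edgeR adjusted p up to 0.0708). The block kept this call too (log2 fold change -0.48, edgeR adjusted p = 0.000122). Within each replicate number, *Inpp4b* was lower and *Inpp5d* higher with PGE2 in all 4 numbers of both settings. The ratio of *Inpp5d* to *Inpp4b* in FPKM therefore was higher with PGE2, at 0.37, 0.434, 0.494 and 0.447 without and 0.611, 0.707, 0.939 and 0.893 with PGE2 in unstimulated replicates 1 to 4. In stimulated cells it was 0.347, 0.369, 0.482 and 0.475 without and 0.568, 0.7, 0.895 and 0.957 with PGE2, again with no overlap.

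The half-site of *Inpp5d* lies 199 bases before its RefSeq start (chr1:87620101-87620129, plus strand), shown with its flanks and the match in capitals as the match of a member that passed the test with PGE2 in both settings without the block.
Inpp5d: agccatgaaaccTGACGctaaaagagccc

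*Pik3ip1* encodes a transmembrane inhibitor of PI3K and lies on chromosome 11 at 3330401 to 3342971 (plus strand). In unstimulated cells it was at 227, 185, 153 and 120.2 CPM in untreated and 243, 199.6, 154 and 122 CPM in PGE2-treated samples. Samples of the same number were close to each other whereas the numbers differed by up to nearly 2 times, and the difference did not pass the test (log2 fold change 0.085, 95% interval -0.38 to 0.55, edgeR adjusted p = 0.81). In stimulated cells it was at 24.3, 21.2, 21.2 and 21.97 CPM without and 38.9, 33.5, 39.1 and 41.1 CPM with PGE2. Both groups were narrow here and well apart (1.73-fold higher; 0.79 ± 0.082 on the log2 scale, edgeR adjusted p = 0.000455). Of its exon bases, 2.13% are shared with the antisense gene *Gm12592*, which had a mean of 1.1 CPM against 106 CPM for *Pik3ip1*.

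Of the subunits of PI3K, *Pik3r1* rose with PGE2 in unstimulated cells and *Pik3cd* passed the test in neither setting without the replicate block, a fit that takes out what samples of the same number share. *Pik3r1* (chromosome 13, 101680563 to 101768217, minus strand), whose p85α product both stabilises and inhibits the catalytic subunit, was at 144, 141, 127 and 131 CPM in untreated and 192, 179, 170.4 and 169 CPM in PGE2-treated unstimulated cells. The groups did not overlap and the rise was 1.32-fold (0.41 ± 0.058 on the log2 scale, edgeR adjusted p = 0.00037), a call lost in 1 fit of all 16 samples (edgeR adjusted p = 0.0831). Stimulated cells had 43.4, 43.2, 49.6 and 61.7 CPM without and 56.1, 55.03, 79.7 and 103 CPM with PGE2, where the groups overlapped and the spread was wide, with replicate 4 highest in both. The difference missed the threshold (1.49-fold; 0.58 ± 0.20 on the log2 scale, edgeR adjusted p = 0.101). With the replicate number as a block it passed (log2 fold change 0.54, edgeR adjusted p = 0.00014), and each number was higher with PGE2, by 0.35 to 0.74 on the log2 scale. It also passed without stimulated PGE2 replicate 1 (edgeR adjusted p = 0.0409).

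*Pik3cd* (chromosome 4, 149649168 to 149702571, minus strand) was at 957, 1028, 1051 and 903 CPM in untreated and 1097, 1036, 997 and 933 CPM in PGE2-treated unstimulated cells. These ranges overlapped almost wholly (log2 fold change 0.064, 95% interval -0.089 to 0.22, edgeR adjusted p = 0.547). In stimulated cells it was at 424, 486, 582 and 564 CPM without and 523, 567, 687 and 677 CPM with PGE2. The groups overlapped and the test was not passed (0.26 ± 0.12 on the log2 scale, edgeR adjusted p = 0.21), whereas with the replicate block it was (log2 fold change 0.26, edgeR adjusted p = 0.00082).

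*Akt1* itself (chromosome 12, 112653821 to 112674884, minus strand) was at 189.6, 196, 194 and 179 CPM in untreated and 159.6, 157, 156 and 160.3 CPM in PGE2-treated unstimulated cells. All PGE2 samples lay below all untreated ones, and they were tightly grouped (1.18-fold lower; -0.24 ± 0.052 on the log2 scale, edgeR adjusted p = 0.00512). In stimulated cells it was at 274, 268, 273 and 248 CPM without and 277, 280.0, 246 and 236 CPM with PGE2. These overlapped, and the difference did not pass the test (log2 fold change -0.026, 95% interval -0.19 to 0.14, edgeR adjusted p = 0.848).

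*Tsc1* (chromosome 2, 28641228 to 28691167, plus strand), whose product keeps the TSC complex stable, was at 43.1, 45.1, 40.4 and 41.2 CPM in untreated and 54.4, 48.9, 43.8 and 43.02 CPM in PGE2-treated unstimulated cells. The PGE2 samples reached higher but overlapped the untreated ones (0.18 ± 0.072 on the log2 scale, edgeR adjusted p = 0.0851). With the replicate block the difference passed the test (log2 fold change 0.18, edgeR adjusted p = 0.00557), as it also did with upper-quartile scaling (edgeR adjusted p = 0.048) and without unstimulated PGE2 replicate 4 (edgeR adjusted p = 0.0433). Stimulated cells had 27.8, 29.4, 29.9 and 31.1 CPM without and 32.4, 32.02, 32.5 and 31.2 CPM with PGE2. These did not overlap, by less than 1 CPM, and the difference was not past the test (0.12 ± 0.066 on the log2 scale, edgeR adjusted p = 0.257).

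**Figure D4:**
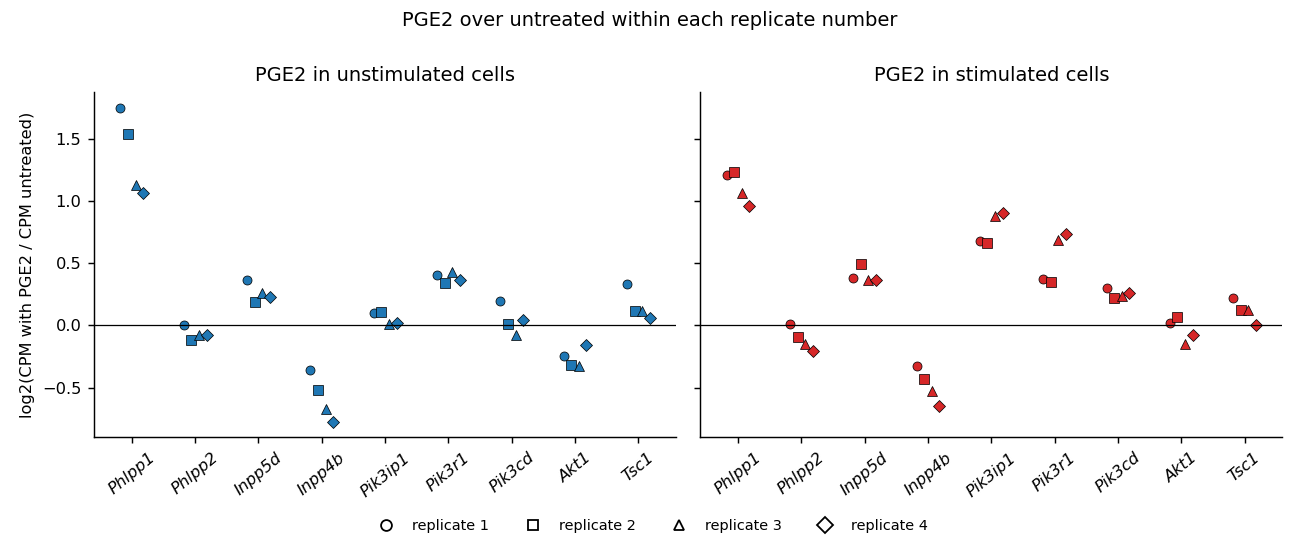
Difference between PGE2-treated and untreated samples of the same replicate number, as the log2 ratio of their CPM, for the 9 members in unstimulated (left) and stimulated (right) cells, 1 symbol for each of the 4 numbers. *Phlpp1* lies between 0.96 and 1.75 in all 8 comparisons, *Phlpp2* near 0, and *Inpp4b* below 0 in all 8.

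With the replicate number as a block, 6 members passed the test for PGE2 in each setting, 4 higher and 2 lower in unstimulated cells and 5 higher and 1 lower in stimulated cells. The block also raised the shares of all genes past the test, to 23.6% higher and 24.2% lower in unstimulated cells and to 19.1% higher and 20.7% lower in stimulated cells. Taken number by number, *Phlpp1*, *Inpp5d*, *Pik3ip1*, *Pik3r1* and *Tsc1* were higher with PGE2 in all 4 numbers of both settings. *Inpp4b* was lower in all of them. For *Pik3ip1* in unstimulated cells these steps were no more than 0.01 to 0.11 on the log2 scale. The share of all genes that moved the same way in every number was not counted, so the directions by number only describe the members.

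Whether the effect of PGE2 depended on stimulation was tested as the interaction, the difference of the log2 fold change in stimulated minus unstimulated cells. None of the 9 members passed in edgeR (adjusted p from 0.339 to 0.976), against 0.749% of the 15096 genes tested, and none passed in DESeq2. At an unadjusted p under 0.05 were 2 members, *Pik3ip1* (difference 0.71, 95% interval 0.16 to 1.27, edgeR adjusted p = 0.339) and *Akt1* (difference 0.23, 0.038 to 0.42, edgeR adjusted p = 0.403). Among all 15096 genes, 1415 were at an unadjusted p under 0.05, so 2 of 9 is to be read against that number. For *Phlpp1* the difference was -0.27 (-0.59 to 0.041, edgeR adjusted p = 0.641). With the replicate block no member passed either, where 2.70% of all genes did. *Pik3ip1* then had a difference of 0.74 (edgeR adjusted p = 0.0786) and *Akt1* of 0.23 (edgeR adjusted p = 0.129). That *Pik3ip1* passed the test for PGE2 in stimulated cells and *Akt1* and *Pik3r1* in unstimulated cells is therefore not shown to be a difference between the settings.

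More members passed the test for stimulation than for PGE2, as did more of all genes. Without PGE2 all 9 passed the test, of which *Phlpp2* and *Akt1* rose and the other 7 fell. Over the 14205 genes tested, 31.7% were higher and 34.8% lower, and the groups did not overlap in 61.6% of genes and in 9 of 9 members. *Pik3ip1* and *Pik3r1* were DEGs, a call that 11.7% of genes met in the lower direction. With PGE2, 7 members passed, *Akt1* higher and *Phlpp1*, *Inpp5d*, *Pik3ip1*, *Pik3r1*, *Pik3cd* and *Tsc1* lower, against 32.5% of 14507 genes higher and 31.7% lower. Here *Phlpp1*, *Pik3ip1* and *Pik3r1* were DEGs (9.44% of genes in the lower direction), and 7 members had no overlap (60.2% of genes). The members' median log2 fold change was -0.56 without and -0.55 with PGE2, against -0.031 and 0.0022 over all genes. These comparisons share their unstimulated or stimulated samples with those of PGE2, so the values are set side by side only.

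**Figure D5:**
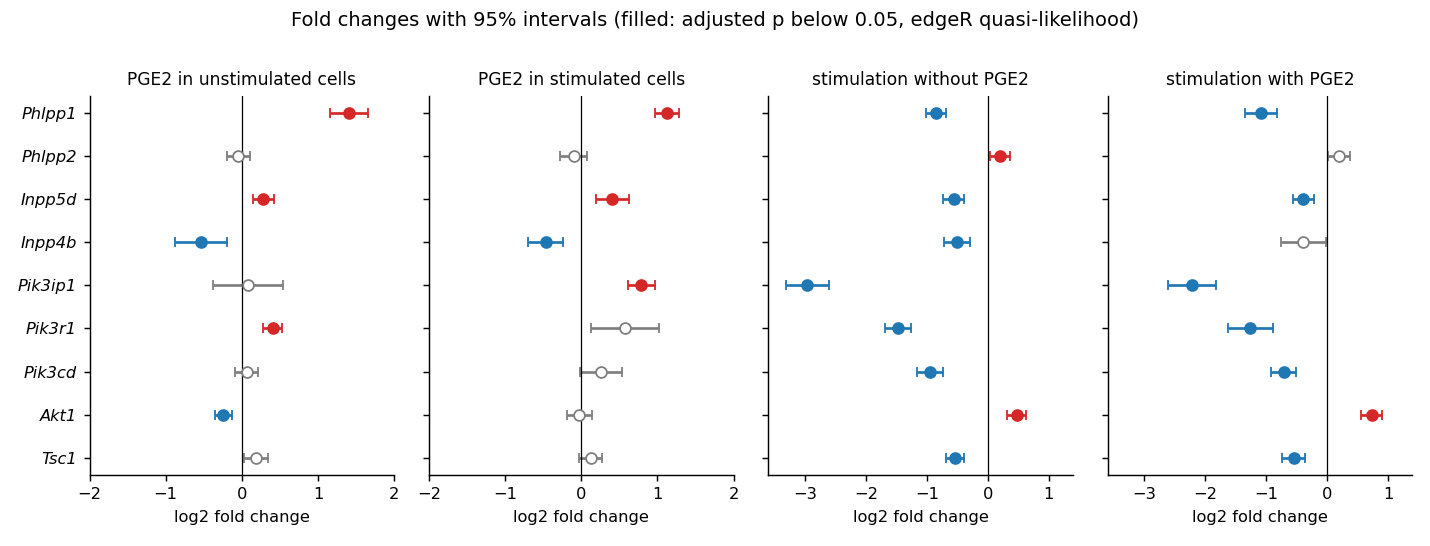
Log2 fold change of each member in the 4 comparisons, with its 95% interval from edgeR (4 samples against 4). Filled markers passed the test (red higher, blue lower) and open grey ones did not. Stimulation lowered *Pik3ip1* by 2.96 without and 2.22 with PGE2 on the log2 scale.

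*Pik3ip1* fell from the values given above, 172 ± 45.7 CPM, to 22.2 ± 1.46 CPM with beads alone (7.78-fold lower; -2.96 ± 0.16 on the log2 scale, edgeR adjusted p = 2.59e-08). In the PGE2 groups it fell from 179.9 ± 53.03 to 38.2 ± 3.26 CPM (4.65-fold lower; -2.22 ± 0.18 on the log2 scale, edgeR adjusted p = 2.82e-06). It was the member with the largest change in both. The highest stimulated sample stood at 24.3 against 120.2 CPM for the lowest unstimulated one without PGE2, and at 41.1 against 122 CPM with it.

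*Pik3r1* and *Pik3cd*, the subunits of one enzyme, fell together. *Pik3r1* went from 136 ± 8.28 to 49.5 ± 8.65 CPM without PGE2 (2.78-fold lower; -1.47 ± 0.10 on the log2 scale, edgeR adjusted p = 9.16e-08) and from 177 ± 10.3 to 73.4 ± 22.6 CPM with it (2.40-fold lower; -1.26 ± 0.17 on the log2 scale, edgeR adjusted p = 6.83e-05). *Pik3cd* went from 985 ± 67.5 to 514 ± 72.9 CPM (1.94-fold lower; -0.95 ± 0.10 on the log2 scale, edgeR adjusted p = 2.63e-06) and from 1016 ± 68.8 to 613 ± 81.2 CPM (1.64-fold lower; -0.71 ± 0.09 on the log2 scale, edgeR adjusted p = 4.91e-05). The catalytic gene thus stayed far above the regulatory one, with ratios of *Pik3cd* to *Pik3r1* in FPKM of 10.7 to 13.3 in unstimulated untreated, 8.88 to 9.42 in unstimulated PGE2, 14.7 to 18.9 in stimulated untreated and 10.6 to 16.6 in stimulated PGE2 samples.

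*Phlpp1* fell by 1.80-fold without PGE2 (-0.85 ± 0.077 on the log2 scale, edgeR adjusted p = 8.54e-07) and by 2.13-fold with it (-1.09 ± 0.12 on the log2 scale, edgeR adjusted p = 1.76e-05). Stimulated PGE2 cells (43.6 to 47.4 CPM) still stood above unstimulated untreated cells (35.03 to 38.9 CPM), without overlap. *Phlpp2* went the other way, from 18.5 ± 0.579 to 21.5 ± 1.10 CPM without PGE2 (0.20 ± 0.077 on the log2 scale, edgeR adjusted p = 0.0323), a small step that was lost without unstimulated untreated replicate 2, 3 or 4 or stimulated untreated replicate 2, 3 or 4 (edgeR adjusted p up to 0.102) and with upper-quartile scaling (edgeR adjusted p = 0.239), no filter on low counts (edgeR adjusted p = 0.167) or limma on unfiltered log2(FPKM + 1) (adjusted p = 0.085). With PGE2 it was at 17.7 ± 1.01 CPM in unstimulated and 19.96 ± 1.07 CPM in stimulated cells and missed the threshold (0.19 ± 0.082 on the log2 scale, edgeR adjusted p = 0.0619).

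Of the lipid phosphatases, *Inpp5d* fell from 146 ± 7.12 to 100.1 ± 11.04 CPM without PGE2 (-0.56 ± 0.078 on the log2 scale, edgeR adjusted p = 3.81e-05) and from 175 ± 13.2 to 132 ± 11.98 CPM with it (-0.39 ± 0.078 on the log2 scale, edgeR adjusted p = 0.00114). *Inpp4b* fell from 581 ± 82.8 to 414 ± 25.03 CPM without PGE2 (-0.50 ± 0.10 on the log2 scale, edgeR adjusted p = 0.00062). In the PGE2 groups *Inpp4b* was at 397 ± 108 and 298 ± 44.2 CPM, with overlap, and missed the threshold (-0.39 ± 0.17 on the log2 scale, edgeR adjusted p = 0.0659), which it passed without unstimulated PGE2 replicate 3 or 4 or stimulated PGE2 replicate 1 (edgeR adjusted p from 0.0266). It also passed with upper-quartile scaling (edgeR adjusted p = 0.0119), no filter on low counts (0.016), a filter of at least 10 counts in every sample (0.041), 1 fit of all 16 samples (0.025) and the replicate block (0.00227). *Tsc1* fell from 42.5 ± 2.12 to 29.6 ± 1.34 CPM without (-0.54 ± 0.069 on the log2 scale, edgeR adjusted p = 1.72e-05) and from 47.5 ± 5.26 to 32.02 ± 0.603 CPM with PGE2 (-0.55 ± 0.082 on the log2 scale, edgeR adjusted p = 0.000149). *Akt1* was the one member that rose in both, from 189.6 ± 7.78 to 266 ± 11.9 CPM without PGE2 (1.39-fold; 0.47 ± 0.07 on the log2 scale, edgeR adjusted p = 5.75e-05) and from 158 ± 2.19 to 259.7 ± 22.2 CPM with it (1.66-fold; 0.73 ± 0.079 on the log2 scale, edgeR adjusted p = 1.57e-05). The sums of NK cell and CD8 T cell markers given above moved with stimulation as well; *Ncr1* stayed at 0, and the part of the other markers in these changes was not tested.

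The matches in the windows of *Pik3r1*, *Tsc1* and *Akt1* are shown because these members fell or rose with stimulation beyond the spread of their samples. They are the half-site in the second window of *Pik3r1*, 35 bases before its RefSeq start (chr13:101692649-101692677, minus strand), the half-site of *Tsc1* at 139 bases before (chr2:28641082-28641110, plus strand) and the FOXO motif in the first window of *Akt1* at 161 bases before (chr12:112675028-112675056, minus strand). All 3 matched as the reverse complement, in capitals.
Pik3r1: tttatcagctctCGTCAatctgcccacgg
Tsc1: gccagcttgtatCGTCAtaagtggtatat
Akt1: atctaccctctTGTTTACactcctggtga

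The other genes of the pathway were taken from a list of 43 that encode PI3K subunits, lipid phosphatases, AKT isoforms, mTORC2, AKT inhibitors, TSC partners, mTORC1 and the AKT substrates FOXO and GSK3. With PGE2 in unstimulated cells 7 of the 43 were higher and 4 lower, where 12.9% of all genes were higher and 15.5% lower. In stimulated cells 4 of the 41 tested were higher and 2 lower, against 6.04% and 3.80% of all genes. The replicate block raised these counts to 23 genes in unstimulated cells (18 higher and 5 lower, against 23.6% and 24.2% of all genes) and to 19 in stimulated cells (11 higher and 8 lower, against 19.1% and 20.7%). In stimulated cells without the block, the count ran from 2 to 9 when 1 replicate was left out. It was 2 without stimulated untreated replicate 2, and 3 without stimulated untreated replicate 1 or 3 or stimulated PGE2 replicate 3. The median log2 fold change of the list was 0.08 in unstimulated and 0.018 in stimulated cells, against -0.001 and -0.0061 over all genes. The sole DEG among them in unstimulated cells was *Prr5*, an mTORC2 component, which fell from 4.94 to 1.97 CPM (-1.30 ± 0.20 on the log2 scale, edgeR adjusted p = 0.00054). In stimulated cells it was *Sesn3*, a sestrin that restrains mTORC1, which rose from 85.1 to 178 CPM (1.07 ± 0.13 on the log2 scale, edgeR adjusted p = 0.00128). With the block both also moved the same way in the other setting, below the 2-fold limit. *Prr5* fell from 11.1 to 7.10 CPM in stimulated cells (log2 fold change -0.65, edgeR adjusted p = 0.000628). *Sesn3* rose from 221 to 301 CPM in unstimulated cells (0.46, edgeR adjusted p = 1.26e-08). Others, named after their values were seen, passed with the block in both settings. *Rptor* of mTORC1 (log2 fold change 0.91 unstimulated and 0.40 stimulated, edgeR adjusted p = 1.56e-10 and 0.000165) and the PI3K subunit *Pik3r5* (0.27 and 0.57, edgeR adjusted p = 9.03e-06 and 4.82e-05) were higher. The AKT inhibitor *Phlda3* (-0.59 and -0.43, edgeR adjusted p = 1.88e-06 and 0.00182) and *Rheb* of mTORC1 (-0.20 and -0.21, edgeR adjusted p = 0.0013 and 0.00549) were lower. *Foxo1* did not pass the test for PGE2 in unstimulated or stimulated cells (log2 fold change 0.15, edgeR adjusted p = 0.062 and 0.21, edgeR adjusted p = 0.158). With the replicate block *Foxo1* passed in both (0.15, edgeR adjusted p = 0.00163, and 0.21, edgeR adjusted p = 0.00353), and it was higher with PGE2 in all 4 numbers of each setting. *Tsc2*, the partner of TSC1, rose slightly in unstimulated cells (0.23 ± 0.051 on the log2 scale, edgeR adjusted p = 0.00696). In stimulated cells *Tsc2* did not pass (0.14 ± 0.066 on the log2 scale, edgeR adjusted p = 0.198), but with the block it did (0.14, edgeR adjusted p = 0.0257), and it was higher with PGE2 in all 4 numbers.

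Stimulation without PGE2 raised 10 of the 43 and lowered 23, where 31.7% of all genes were higher and 34.8% lower. With PGE2 it raised 9 and lowered 20, against 32.5% and 31.7% of all genes. The list had medians of -0.26 without and -0.22 with PGE2 on the log2 scale. *Foxo1* fell in both (-0.80 and -0.70 on the log2 scale; edgeR adjusted p = 7.82e-07 and 1.38e-05). No gene of the list passed the interaction test in edgeR. At an unadjusted p under 0.05 were 7, where 1415 of all 15096 genes were. With the replicate block 2 passed, where 2.70% of all genes did. In DESeq2 1 gene passed, and 1 without the filter on low counts. Leaving out stimulated untreated replicate 4 or stimulated PGE2 replicate 1 or 2 also gave 1 gene. The shares of all genes in DESeq2, without the filter and with a replicate left out were not counted.

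A further list held 7 genes that FOXO1, which AKT inhibits, is known to raise in T cells. With PGE2, 4 of the 7 were higher in unstimulated and 7 of the 7 in stimulated cells, and none was lower, where 12.9% and 6.04% of all genes were higher. With the replicate block 5 were higher and 1 lower in unstimulated cells, against 23.6% and 24.2% of all genes. With stimulation all 7 fell, both without PGE2, where 34.8% of all genes were lower, and with it, where 31.7% were. Their median log2 fold change was 0.30 and 1.07 with PGE2 in unstimulated and stimulated cells, and -1.54 and -0.89 with stimulation without and with PGE2. The list was chosen with earlier results of these samples known, so its direction is no independent evidence. The DEGs in a PGE2 comparison were *Ccr7*, a lymph node homing receptor (1.41 ± 0.18 on the log2 scale, edgeR adjusted p = 0.00153, stimulated), *S1pr1*, which guides egress (1.09 ± 0.11 on the log2 scale, edgeR adjusted p = 0.00036, stimulated), *Irs2*, an adaptor of insulin receptors (1.05 ± 0.079 on the log2 scale, edgeR adjusted p = 6.29e-06, unstimulated; 1.08 ± 0.14 on the log2 scale, edgeR adjusted p = 0.00178, stimulated) and *Cdkn1b*, a cell cycle inhibitor (1.07 ± 0.26 on the log2 scale, edgeR adjusted p = 0.0322, stimulated). *Klf2*, named here after its values were seen, was the one gene of the list past the interaction test (difference 0.83 on the log2 scale, edgeR adjusted p = 0.0391), where 0.749% of all genes passed. With the replicate block 4 of the 7 passed it, where 2.70% of all genes did.

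The pattern of *Phlpp1* over the 16 samples was compared with all 9913 genes that averaged 5 CPM or more. The measure was the root mean square difference of log2 CPM after centring each gene. The nearest were *Patj* (0.192), *Tcn2* (0.196), *Camk4* (0.209), *Emb* (0.219) and *Kctd12* (0.221). *Patj*, for example, had group means of 29.4, 79.1, 14.9 and 33.1 CPM in unstimulated untreated, unstimulated PGE2, stimulated untreated and stimulated PGE2 cells. Among the members *Pik3r1* was nearest to *Phlpp1*, at 0.519 with 515 genes nearer, then *Inpp5d* at 0.542 with 684 nearer. *Phlpp2*, at 0.89, had 5776 genes nearer, and *Akt1* was the farthest at 1.06 with 7643 nearer. The likeness is a description of these samples, which share their libraries.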

How the data were processed

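RNA-seq of 16 samples (4 groups of 4) was analysed. Per the labels, the authors aligned reads to GRCm38 (mm10) with HISAT2 2.0.5, counted them on genes with featureCounts 1.5.0-p3 and tested them with DESeq2 1.20.0. They deposited raw counts and FPKM, which they derived from the counts and gene length. Use of strand and the annotation release are not given in the sources used here. What samples of the same replicate number share is not given either, so p-values measure the spread between these samples, which may be technical. The members and gene lists were chosen with earlier results of these data known.

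Counts were tested with edgeR 4.0.16 in R 4.3.3 (quasi-likelihood test, two-sided, TMM scaling, filterByExpr with a minimum count of 10), with only the groups compared in each fit and all 16 samples for the interaction, and adjusted by Benjamini-Hochberg over all genes tested. A gene was a DEG where it changed at least 2-fold with adjusted p below 0.05. CPM shown are TMM-scaled over the 16 samples. All 9 members were named, and of the other lists the DEGs for PGE2 or the interaction, *Foxo1* and *Tsc2*. *Klf2*, *Rptor*, *Pik3r5*, *Phlda3* and *Rheb* were named after their values were seen. Values of some genes are left out here. The scripts were tested on simulated data. Alternatives were DESeq2 1.42.0, other scalings and filters, limma 3.58.1 on log2(FPKM + 1) or log2(FPKM + 0.1), 1 fit of all samples, the replicate block and leaving out each replicate. Deviations of same-numbered samples from their group means correlated in every pair for PGE2 in unstimulated (0.234 to 0.621) and stimulated cells (0.409 to 0.599). For stimulation without PGE2 they did so too (0.206 to 0.488). The same number correlated best in all 4 pairs of each of these comparisons, so there the numbers were read as a pairing. The highest correlations with another number were 0.101 to 0.177, 0.350 to 0.438 and 0.0517 to 0.222 in the same order. For PGE2 in stimulated cells these came near the same-number values.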

Additional observations from a re-analysis of the deposited data

How the results depend on the processing

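Of 873 refits of a member's log2 fold change under another setting, 819 kept direction and side of the threshold, 26 lost the call, 18 gained it and 10, none of them past the test, changed sign. *Phlpp1* kept its direction and call in all of them for both PGE2 comparisons. In stimulated cells, *Phlpp1* was no longer a DEG, so that 0 members were, with limma on log2(FPKM + 1), with or without a filter on low values; the pseudocount lowers the fold change of low genes. There, 2 members passed the test without the filter, and 2 to 5 when 1 replicate was left out, with 2 without stimulated untreated replicate 1 or 2 or stimulated PGE2 replicate 3. The values that changed sign did so on leaving out 1 replicate, and ranged from -0.077 to 0.24 (*Pik3ip1*, PGE2 in unstimulated cells), from -0.066 to 0.018 (*Akt1*, PGE2 in stimulated cells), and for the interaction from -0.042 to 0.25 (*Inpp4b*), from -0.10 to 0.016 (*Tsc1*) and from -0.028 to 0.31 (*Pik3r1*).

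The rise of *Pik3r1* with PGE2 in unstimulated cells was lost in 1 fit of all 16 samples (edgeR adjusted p = 0.0831), in which its rise in stimulated cells passed (edgeR adjusted p = 0.0236), as it did in DESeq2 (adjusted p = 0.0395). Limma on log2(FPKM + 1) without a filter lost *Inpp4b* in unstimulated cells (adjusted p = 0.123) and *Inpp5d* and *Inpp4b* in stimulated cells (adjusted p = 0.0556 and 0.0812). The causes were not tested. Upper-quartile scaling moved the median of all genes to -0.128 for stimulation without and -0.125 with PGE2. It took the rise of *Phlpp2* with stimulation below the threshold (log2 fold change 0.11, edgeR adjusted p = 0.239). For stimulation with PGE2, where the same-number correlation was 0.0432 to 0.408 and 3 of 4 samples correlated best with their own number, the replicate block brought *Phlpp2* (0.19, edgeR adjusted p = 0.0494) and *Inpp4b* (-0.37, edgeR adjusted p = 0.00227) past the threshold. The block changed no other call of a member than these and the 3 given in the report.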
